A study of Mus musculus with 34 samples.

Results

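The genes described here are 5 homeobox transcription factor genes of the craniofacial mesenchyme: Alx1, Alx4, Prrx1, Prrx2 and Barx1. They were taken by symbol, and 5 of the 16001 gene symbols that could be placed in the deposited peak tables are these genes. Each gene was given a point, the position on which the summits and gene distances of its peaks in those tables met, and a territory of 100 kb to each side of it. The members were chosen by the numbers of peaks counted in these territories, so those counts are a description. The points lay at position 102491411 of chromosome 10 for Alx1, 93482590 of chromosome 2 for Alx4, 165243781 of chromosome 1 for Prrx1, 30700800 of chromosome 2 for Prrx2 and 48758404 of chromosome 13 for Barx1, all in mouse build mm9. Between 4 peaks (Alx1) and 17 peaks (Alx4) agreed on a point, and 70% of all points lay inside a limb region of H3K4me3, a mark of gene starts.

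Homeobox proteins bind AT-rich DNA through the homeodomain and switch developmental genes on or off. Alx1 and Alx4 encode aristaless-like factors of the neural crest-derived frontonasal mesenchyme, and Alx4 also acts in anterior limb patterning. Prrx1 and Prrx2 encode paired-related factors of craniofacial and limb mesenchyme that shape the skeleton together. Barx1 encodes a BarH-like factor of the oral and maxillary mesenchyme, known for its part in molar tooth and stomach development.

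The study mapped FLAG-tagged chromatin proteins by ChIP-seq, that is, immunoprecipitation of crosslinked chromatin with an anti-FLAG antibody and sequencing. Tissue came from 129/C57BL/6 FLAG knock-in embryos of day 11.5, pooled over both sexes from about 150 embryos for SMARCA4 in face, forebrain, limb, neural tube and hindbrain, and from about 300 for the other FLAG tissue samples. Histone marks and their inputs came from limb and forebrain of CD1 embryos of the same day, in pools of about 150. SMARCA4 is the motor ATPase of the SWI/SNF remodelling complex and SMARCC2 a scaffold subunit of it. EP300 acetylates histones, and NCOA1 and NCOA2, mapped in hindbrain, are coactivators of nuclear receptors. SMARCA4 and EP300 were also mapped in embryonic stem cells (ESC) of the knock-in line. No label gives the fraction of mesenchyme in a tissue, the pools mix all its cells, and binding in few cells and weak binding in many cannot be told apart. The genotype label names SMARCA4 on the samples of every tagged protein and the tissue label of SMARCA4 hindbrain reads forebrain. Heart and hindbrain are the tissues in the protocol text of the histone samples. The labels do not say what the input controls of the FLAG samples contain. Lists of 30 of 34 samples were used; not analysed here were the SMARCA4 controls of limb, heart, neural tube and forebrain. There was 1 library per condition, so no difference has a replicate check and no p-value is given.

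The lists differed in length, from 35099 peaks of SMARCA4 and 11321 of SMARCC2 to 3589 of EP300 in face and 5251 of SMARCA4 in limb. The EP300 face control held 28895 peaks and the SMARCC2 face control 1078. As a check of tissue labels, all 8 placed face genes of the marker list had a SMARCA4 face peak in their territory, with a median of 7 peaks, and so did all 7 brain genes (median 5), all 6 endothelial genes (median 6) and all 3 placed erythroid genes (median 8). A SMARCA4 face peak was also found at 6 of 6 placed limb, 4 of 4 placed heart and 4 of 5 stem cell genes. At least 1 such peak is thus no marker of face tissue in this list. In SMARCA4 limb, 3 of 6 placed limb genes, 0 of 7 brain genes, 4 of 6 endothelial genes and 3 of 5 stem cell genes had a peak. So did 4 of 8 placed face, 1 of 4 placed heart and 1 of 3 placed erythroid genes, against 63.1% of all genes. The limb genes thus did not stand above the background in that list.

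The sequences before the gene starts are shown because limb regions of H3K4me3 covered all 5 gene points. SMARCA4 face covered 1 of these points and came within 1 kb of all 5, and of 71.4% of all points. RefSeq promoters of build GRCm38.p6 matched 3 of the 5 genes, Prrx1, Prrx2 and Barx1; Alx1 and Alx4 did not match. Each stretch holds the 250 bases before the start, 5′ to 3′ on the gene's strand. The regions are chr1:163313651-163313900 (minus strand) for Prrx1, chr2:30845117-30845366 (plus strand) for Prrx2 and chr13:48662786-48663035 (plus strand) for Barx1. Capitals mark TAAT, the core that homeodomains bind, and GGGCGG, a GC box, each on either strand.
Prrx1: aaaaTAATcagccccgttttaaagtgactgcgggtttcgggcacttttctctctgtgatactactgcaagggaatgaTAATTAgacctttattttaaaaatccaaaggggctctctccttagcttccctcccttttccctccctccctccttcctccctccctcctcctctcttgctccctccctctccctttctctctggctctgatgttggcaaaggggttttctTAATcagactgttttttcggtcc
Prrx2: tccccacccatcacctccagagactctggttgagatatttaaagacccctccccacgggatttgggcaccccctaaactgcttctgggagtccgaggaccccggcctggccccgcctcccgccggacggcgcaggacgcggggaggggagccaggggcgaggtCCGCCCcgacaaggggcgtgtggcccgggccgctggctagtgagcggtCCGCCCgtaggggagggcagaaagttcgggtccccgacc
Barx1: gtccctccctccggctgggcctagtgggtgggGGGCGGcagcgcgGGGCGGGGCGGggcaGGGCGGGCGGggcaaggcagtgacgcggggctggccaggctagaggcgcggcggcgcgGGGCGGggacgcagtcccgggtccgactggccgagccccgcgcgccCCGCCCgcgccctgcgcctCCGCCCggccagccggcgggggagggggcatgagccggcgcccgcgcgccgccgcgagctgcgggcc

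The 3 promoters differed in composition. GC content was 47.6% for Prrx1, 70% for Prrx2 and 85.6% for Barx1, against a median of 52.4% over 32851 promoters of the same length. Prrx1 held 4 CpG dinucleotides, Prrx2 21 and Barx1 40, against a median of 6. TAAT occurred 4 times in Prrx1, counted on both strands so that TAATTA counts on each, and 0 times in Prrx2 and Barx1. It was present in 54.9% of all promoters. GGGCGG occurred 0 times in Prrx1, 2 times in Prrx2 and 8 times in Barx1, overlapping copies included, and was present in 32.7% of all promoters. The letters CANNTG, an E box, were in none of the 3 windows on either strand, and in 66.2% of all promoters. The same held for TATAAA, which 12.4% of all promoters had. A match describes letters in the window and is not a site.

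All 5 genes had SMARCA4 peaks in face, with 3 at Alx1, 13 at Alx4, 3 at Prrx1, 18 at Prrx2 and 12 at Barx1. Of all genes, 98% had at least 1 such peak and the median gene had 5. Prrx2, Alx4 and Barx1 were in the upper part of this range and Alx1 and Prrx1 below its median. A count as high as that of Prrx2 was found at 0.281% of genes, as that of Alx4 at 5.34% and as that of Barx1 at 8.07%. The count of Alx1 and Prrx1 was reached or passed by 82.3% of genes.

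**Figure D1:**
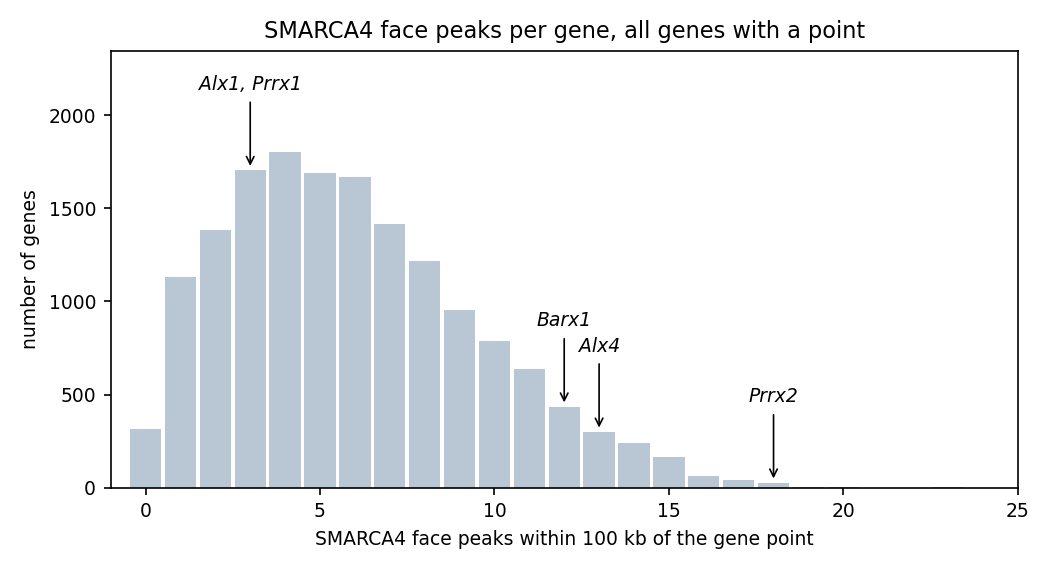
Number of genes (vertical axis) by the number of SMARCA4 face peaks within 100 kb of the gene point (horizontal axis), for all 16001 genes with a point. Arrows mark the 5 genes; Alx1 and Prrx1 lie at 3 peaks, below the median of 5, and Barx1, Alx4 and Prrx2 at 12, 13 and 18.

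SMARCC2 in face gave 1 peak at Alx1, 8 at Alx4, 2 at Prrx1, 10 at Prrx2 and 2 at Barx1, and 74.2% of all genes had at least 1. Prrx2 and Alx4 were again highest, with counts that 0.412% and 1.18% of genes reached. With each SMARCC2 peak given to its nearest gene point alone, Prrx2 had 4 and Alx4 8. Barx1 differed from Alx4 here: the 2 genes had 12 and 13 SMARCA4 face peaks but 2 and 8 of SMARCC2. EP300 in face gave 0 peaks at Alx1 and Barx1, 1 each at Alx4 and Prrx1 and 2 at Prrx2, and 52.4% of genes had at least 1. SMARCA4 in limb gave 0 peaks at Alx1 and Alx4, 1 each at Prrx1 and Barx1 and 4 at Prrx2, and 63.1% of genes had at least 1. The members' share with a peak, 3 of 5, was near that background in both of these lists.

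Summed over the 5 genes, there were 49 SMARCA4, 23 SMARCC2 and 4 EP300 peaks in face and 6 SMARCA4 peaks in limb. Per 1000 peaks of each list, this was 1.40, 2.03, 1.11 and 1.14. With the best-ranked 3589 peaks of each list the sums were 9, 11, 4 and 4, so the order of SMARCA4 and SMARCC2 in face turned and the excess of face over limb for SMARCA4 shrank to 9 against 4. At this equal length SMARCA4 face gave 0 peaks at Alx1, 1 each at Alx4, Prrx1 and Barx1 and 6 at Prrx2. The EP300 face control gave 36 peaks, namely 1 at Alx1, 10 at Alx4, 4 at Prrx1, 13 at Prrx2 and 8 at Barx1, or 1.25 per 1000 of its list. It thus ranked Prrx2, Alx4 and Barx1 above the other genes as SMARCA4 face did; 96.9% of genes had at least 1 peak in it. The SMARCC2 face control gave 0 peaks at all 5 genes, and 11.9% of genes had at least 1. The SMARCA4 midbrain control gave 1, 8, 2, 8 and 7 peaks at Alx1, Alx4, Prrx1, Prrx2 and Barx1, and 94.2% of genes had at least 1. The hindbrain controls gave 1 peak for NCOA1, at Prrx1, 5 for NCOA2, at Alx4, Prrx2 and Barx1, and 1 for SMARCC2, at Prrx2, with 21.5%, 71.3% and 14.7% of genes at 1 or more.

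**Figure D2:**
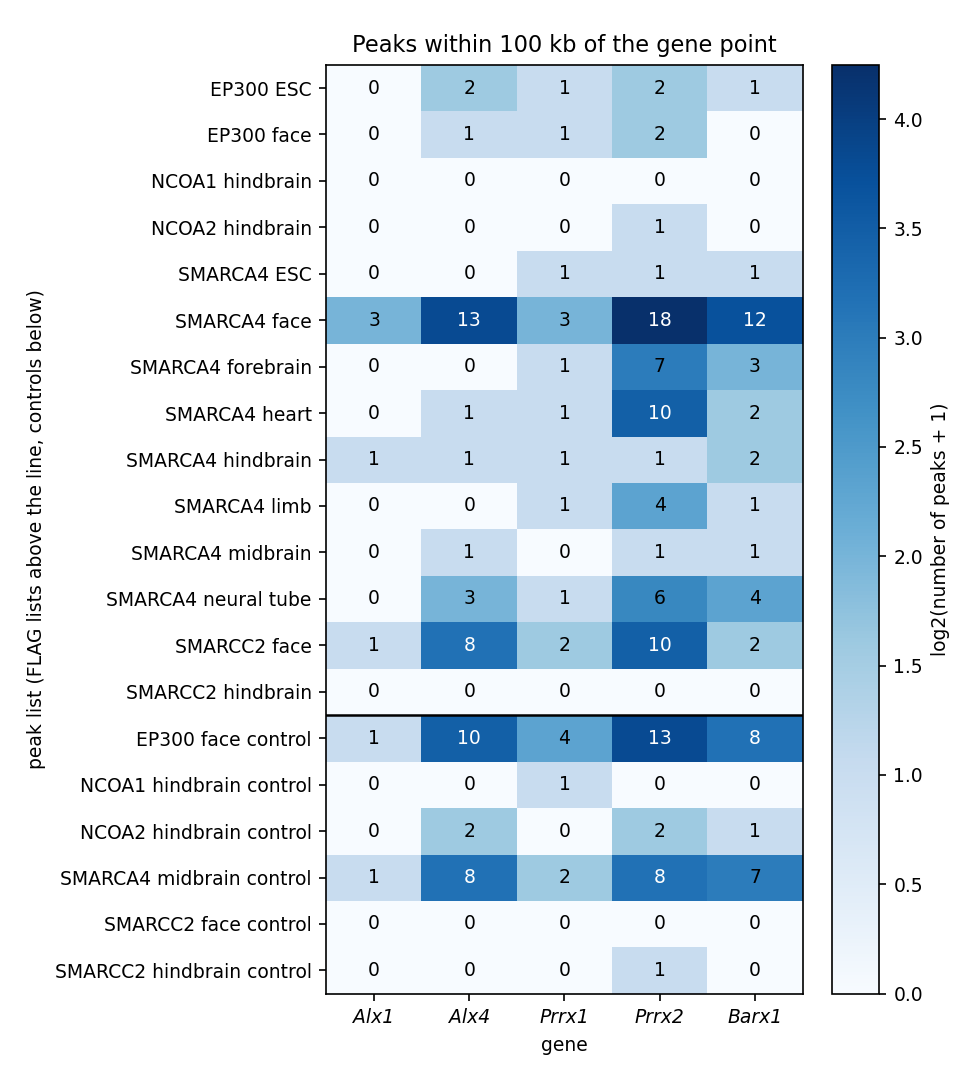
Peaks within 100 kb of each gene point (columns) in the 14 FLAG lists above the line and the 6 control lists under it; each cell prints the number of peaks and its colour is log2 of that number plus 1. Alx4 and Prrx2 have the highest numbers of the 5 genes in SMARCA4 face, SMARCC2 face, the EP300 face control and the SMARCA4 midbrain control.

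Across the other FLAG lists, Prrx2 had the highest number of SMARCA4 peaks of the 5 genes in heart (10), forebrain (7) and neural tube (6), and Barx1 followed in forebrain (3) and neural tube (4). The Prrx2 point was the nearest gene point for only 3 of the 10 in heart, 1 of the 7 in forebrain and 2 of the 6 in neural tube. By nearest point, Prrx2 was still highest in heart. It tied with Prrx1 and Barx1 in forebrain (1 each) and was below Alx4 (3) in neural tube. Of all genes, 74.4% had a SMARCA4 peak in heart, 71.5% in forebrain and 89.9% in neural tube. A SMARCA4 peak was found at 58.8% of genes in hindbrain, 19.7% in midbrain and 61.1% in ESC. Alx4 had 3 SMARCA4 peaks in neural tube, 1 each in heart, hindbrain and midbrain and 0 in forebrain, limb and ESC. Alx1 had 1 SMARCA4 peak in hindbrain and 0 in ESC and every other tissue but face. Prrx1 had 1 peak each in forebrain, heart, hindbrain, limb, neural tube and ESC and 0 in midbrain. In ESC, EP300 gave 0, 2, 1, 2 and 1 peaks at Alx1, Alx4, Prrx1, Prrx2 and Barx1, against 82.9% of genes with at least 1. NCOA1 and SMARCC2 in hindbrain gave 0 peaks at all 5 genes, and NCOA2 gave 1, at Prrx2. At least 1 peak was found at 20.1% of genes for NCOA1, 16.3% for SMARCC2 and 52.8% for NCOA2 in hindbrain. Numbers of peaks cannot be compared across these lists, which differ in length and calling.

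The genes differed in their surroundings. No other gene point lay in the territories of Alx1 and Alx4, while there were 2 for Prrx1, 4 for Prrx2 and 1 for Barx1, against a median of 2. Asb6, a SOCS-box adaptor gene, lay 17.0 kb from the Prrx2 point. In the authors' deposited tables, the nearest gene was Alx1 for 4 of 4 peaks, Alx4 for 32 of 34, Barx1 for 14 of 25, Prrx1 for 7 of 14 and Prrx2 for 11 of 52. These tables include the 6 control lists and leave out SMARCA4 in face and limb, whose lists hold ranks. Control peaks made up 2 of the 4 at Alx1, 20 of the 34 at Alx4 and 16 of the 25 at Barx1. They made up 7 of the 14 at Prrx1 and 24 of the 52 at Prrx2. The same tables gave 20 peaks of the Prrx2 territory to 1700001O22Rik, 8 to Asb6, 6 to Ptges, the prostaglandin E synthase gene, 4 to 2610205E22Rik and 2 to Tor1b. They gave 10 peaks of the Barx1 territory to AW456874, and 5 and 2 peaks of the Prrx1 territory to Scyl1bp1 and AK038736. With each SMARCA4 face peak given to its nearest gene point alone, Prrx2 had 4, Alx4 11, Barx1 8, Alx1 3 and Prrx1 2. Prrx2 then no longer had the highest number, and Alx4 did.

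SMARCA4 face peaks were spread through the territories of Alx4, Prrx2 and Barx1 and lay close to the point at Alx1. At Alx1 the 3 peaks lay at -0.414, 1.02 and 4.57 kb, with positive distances towards higher coordinates, and the next peak lay 207.4 kb away. The outermost peaks inside the edge lay 97.66 kb from the point at Alx4, 90.18 kb at Prrx1, 91.86 kb at Prrx2 and 96.66 kb at Barx1. The first peaks outside it lay at 104.1 kb, 109.9 kb, 119.8 kb and 110.4 kb. Measured from peak midpoints, 38 of 49 peaks lay 10 to 100 kb from the gene point and 39 of 49 lay over 1 kb from every gene point. Peaks near any gene point made up 20.4% of the 49, against 29.4% of the whole list.

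**Figure D3:**
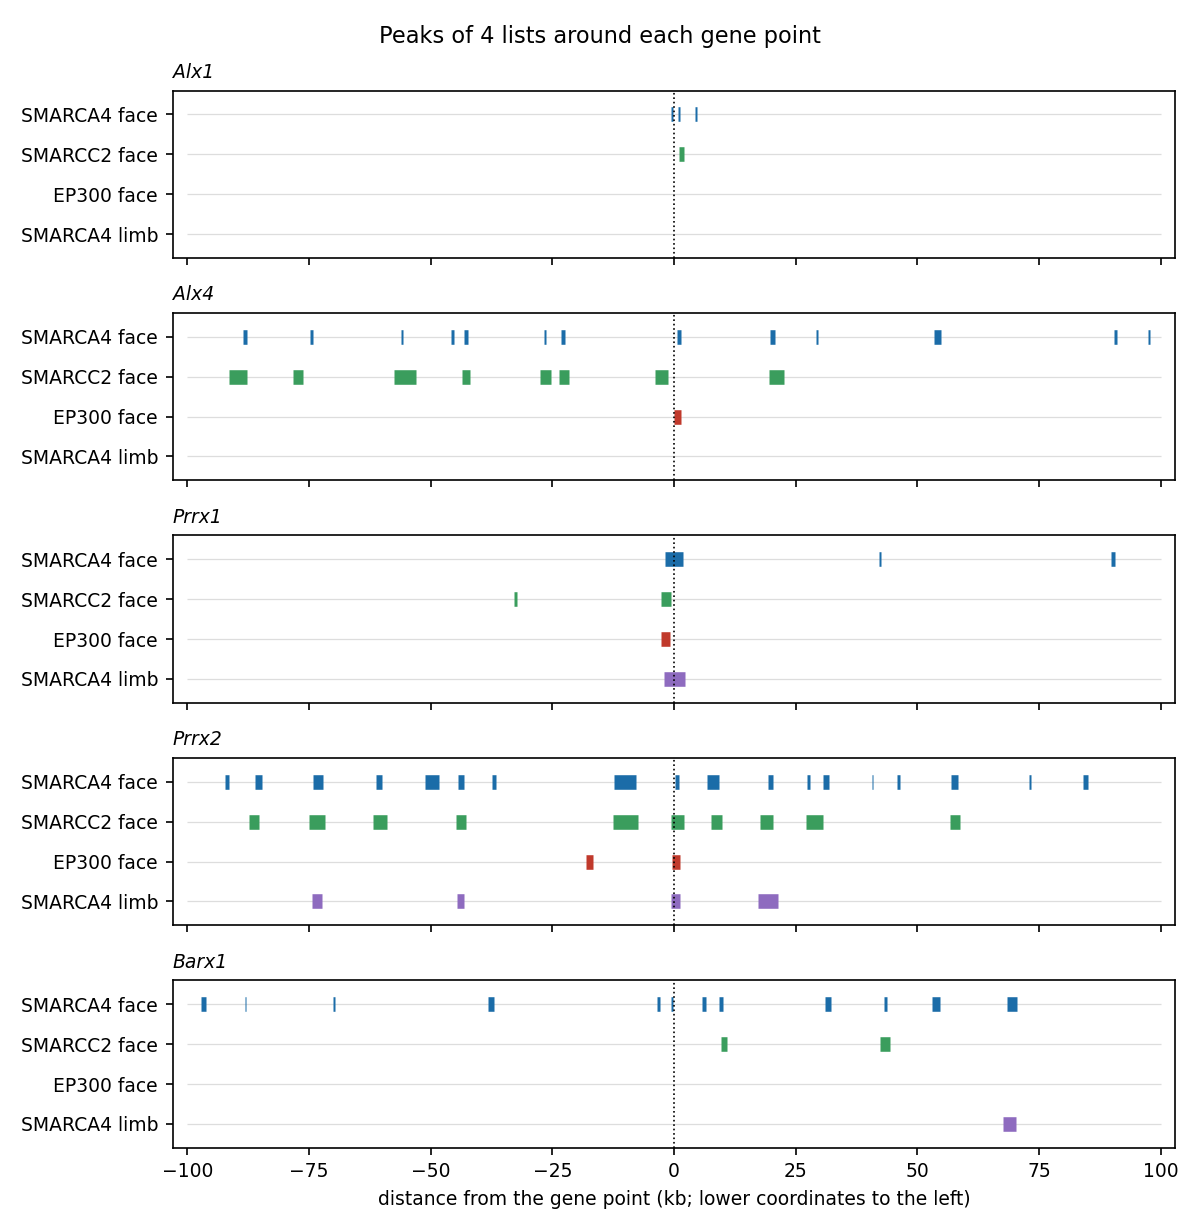
Peaks of SMARCA4, SMARCC2 and EP300 in face and SMARCA4 in limb, drawn to width at their distance from each gene point (horizontal axis, kb; 0 is the point). Peaks of SMARCA4 face spread on both sides at Alx4 and Prrx2, and those of SMARCC2 face at Prrx2. At Alx4, 7 SMARCC2 face peaks lie on the lower-coordinate side and 1 on the higher. The 3 SMARCA4 face peaks of Alx1 lie within 5 kb of its point.

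Several of the 49 peaks stood high in the authors' rank, whose basis the labels and headers used here do not state. The best-ranked was the Barx1 peak at 53.9 kb, rank 488 of 35099, which overlapped no other FLAG list. The Prrx1 point peak followed at rank 961, and the Prrx2 peaks at -10.1 kb and -73.2 kb stood at ranks 1026 and 1081. Of the 49, 39 were in the better-ranked 50% of the list. Their median width was 765 bp, against 489 bp over the list. Overlap with another FLAG list was absent for 16 of the 49 peaks (32.7%, exact 95% interval 19.9% to 47.5%), 5 of them at Alx4 and 5 at Barx1, against 45% of the whole list.

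SMARCC2, which joins SMARCA4 in the same complex, mostly lay over SMARCA4 peaks near these genes. In face, 20 of 23 SMARCC2 peaks overlapped a SMARCA4 peak by at least 1 bp, a share of 87.0% (exact Clopper-Pearson 95% interval 66.4% to 97.2%), against 72.4% of the whole SMARCC2 list. In reverse, 20 of 49 SMARCA4 peaks overlapped SMARCC2, or 40.8% (27% to 55.8%), against 23.7% of the whole list. Both lists entered the choice of the genes, and 16 of the 20 overlaps lay at Prrx2 and Alx4, which had the most SMARCC2 peaks, so these shares are a description. Per gene, this was 10 of 18 at Prrx2, 6 of 13 at Alx4, 2 of 12 at Barx1 and 1 of 3 each at Alx1 and Prrx1. Away from every gene point, 16 of 39 SMARCA4 peaks overlapped SMARCC2, or 41.0% (25.6% to 57.9%), against 20.3% of such peaks over the whole list. Intervals cover counting error only, and peaks of 1 territory are not independent.

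**Figure D4:**
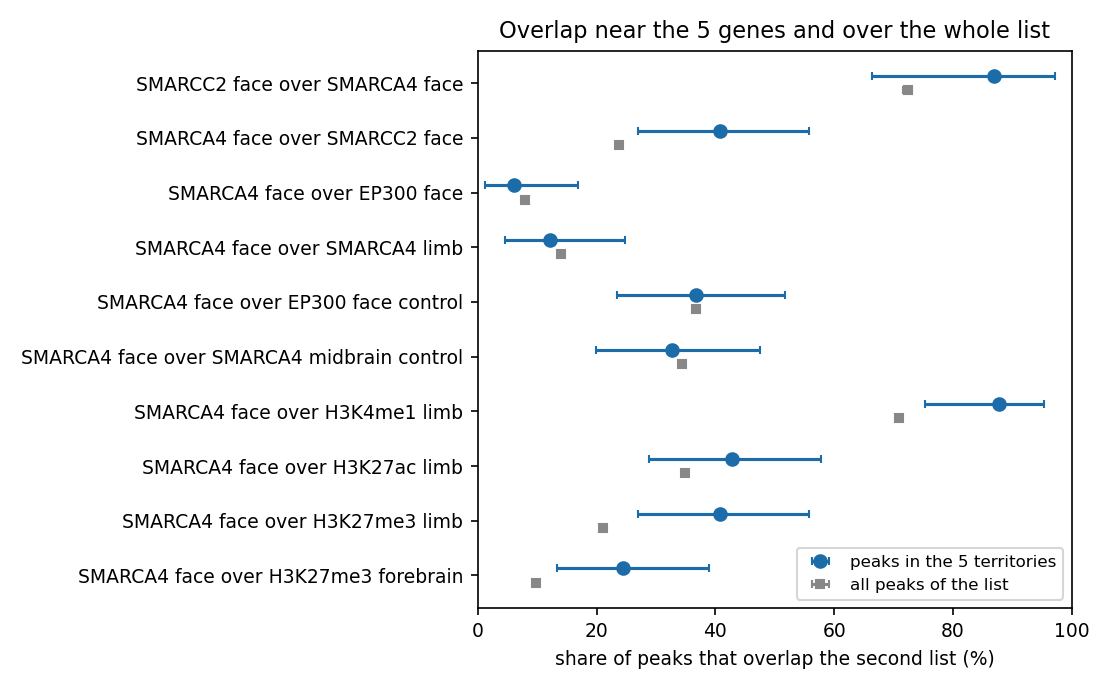
Share of peaks of the first list that overlap the second list (horizontal axis, percent), for peaks in the 5 territories (circles) and all peaks of the list (squares), with exact 95% intervals as bars. The share of SMARCA4 face over SMARCC2 face is 40.8% near the 5 genes and 23.7% over the list, while the share over the EP300 face control is 36.7% against 36.8%.

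The authors' values of the 23 SMARCC2 peaks were a count of 31 to 240 tags per peak (median 130, against 87 over the list), a fold enrichment of 2.89 to 5.41 (median 4.25, against 4.32) and a false discovery rate of 0.23% to 1.7%. Among peaks with a midpoint over 1 kb from every gene point, the highest fold was 5.41 at Alx1 (1.51 kb, 42 tags). It was 5.22 at Alx4 (-26.4 kb, 139 tags), 5.3 at Prrx1 (-1.58 kb, 136 tags), 5.16 at Prrx2 (19.0 kb, 153 tags) and 3.55 at Barx1 (43.3 kb, 115 tags). The nearest edge of that Prrx1 peak lay 538 bp from the point. Each of these 5 peaks overlapped a SMARCA4 face peak. The Alx4 territory also held a SMARCC2 peak of 240 tags at -89.6 kb, which the authors' deposited table gives to Cd82, a tetraspanin gene.

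EP300 in face had 3 of its 4 peaks over or within 1 kb of a member's point. The Alx4 peak (146 tags, fold 4.25) covered the point, and so did a Prrx2 peak (72 tags, fold 5.31), against 17.1% of all points covered. The Prrx1 peak (180 tags, fold 5.72) ended 782 bp from the point, so 3 of 5 points had EP300 within 1 kb, against 18.6% of all points. The other Prrx2 peak lay at -17.3 kb, by Asb6. The authors' false discovery rate was 3.79% for the Prrx1 peak, 9.03% for Alx4, 49.93% for Prrx2 and 100% for the peak by Asb6, and 22.0% of the whole list had a rate of 5% or less. All 4 peaks overlapped a control or input list, as did 75.7% of the whole EP300 list. Of the 39 SMARCA4 face peaks away from gene points, 0 overlapped EP300, against 1.54% of such peaks over the whole list. A count of 0 allows a share of up to 7.69% by the limit of 3 counts, and the exact 95% interval reaches 9.03%.

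Each of the 6 limb SMARCA4 peaks overlapped a SMARCA4 peak of face, as did 91.5% of the limb list, and also a control or input list, as did 86.7%. The Prrx1 peak covered the point over 4300 bp and had rank 119 of 5251. The Prrx2 peaks lay at -73.3, -43.8, 0.35 and 19.4 kb, with ranks 2973, 668, 5163 and 1438. The Barx1 peak lay at 68.9 kb, rank 4092. Of the 49 SMARCA4 face peaks, 23 (46.9%) overlapped a control or input list, against 46.4% of the whole list, and 26 did not. Of the 23 SMARCC2 peaks, 9 (39.1%) did, against 49.7%. The part of control signal in the counts was not tested.

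The SMARCA4 face peaks that overlapped most other FLAG lists, 6 each, were that over the Prrx1 point and 1 in the Prrx2 territory; over the whole list, 5.35% of peaks overlapped 6 or more. The Prrx1 peak, chr1:165241967-165245667 (mm9), overlapped SMARCA4 in forebrain, limb and neural tube, SMARCC2 and EP300 in face, EP300 in ESC, and the EP300 face and SMARCA4 midbrain controls. The next regions are, for each gene, the peak over 1 kb from every gene point that overlapped most FLAG lists. The Prrx2 region chr2:30626538-30628716 (mm9), 73.2 kb below the point, held a SMARCA4 face peak that overlapped 6 other FLAG lists, namely SMARCA4 in forebrain, heart, limb, midbrain and neural tube and SMARCC2 in face. It lay 29.6 kb from a gene point other than that of Prrx2. At Barx1, chr13:48826786-48828908 (mm9), 69.4 kb above the point, overlapped SMARCA4 in forebrain, limb and neural tube, and both the EP300 face and SMARCA4 midbrain controls. At Alx4, chr2:93459352-93460116 (mm9), 22.9 kb below the point, overlapped SMARCA4 hindbrain, SMARCC2 face and the midbrain control. It tied with chr2:93502374-93503289 (mm9), 20.2 kb above the point, and was named for its better rank (6691 against 7167). That second Alx4 peak overlapped SMARCA4 neural tube and SMARCC2 face, limb H3K27ac and no control or input list. The corresponding peak of Alx1, at 1.02 kb, overlapped 1 other FLAG list, SMARCC2 face. Prrx1 had 1 peak over 1 kb from every gene point, at 42.3 kb, and it overlapped 0 other FLAG lists.

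At the gene starts, all 5 points lay inside both H3K4me3, a mark of gene starts poised or active, and H3K27me3, the Polycomb mark of repressed developmental genes, in limb and again in forebrain. Both marks together covered 18.7% of all points in limb, 2.79% in forebrain and 2.31% in both tissues. Among 29 other craniofacial and mesenchyme regulators with a point, 24 carried both in limb and 5 in forebrain. Pools hold many cell types, so both marks at a point need not lie on the same chromosome copy. H3K27me3 with or without H3K4me3 covered 22.6% of all points in limb and 3.72% in forebrain, and H3K4me3 covered 70% and 69.1%.

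The H3K27me3 regions over the points were widest at Barx1 and Alx4 in limb and at Alx1 in forebrain. In limb they spanned 10562 bp at Alx1, 20823 bp at Alx4, 5571 bp at Prrx1, 2620 bp at Prrx2 and 22672 bp at Barx1, against a median of 2052 bp over the list. In forebrain they spanned 13370 bp at Alx1, 4608 bp at Alx4, 8138 bp at Prrx1, 2695 bp at Prrx2 and 10112 bp at Barx1, against a median of 990 bp. The Barx1 region had rank 156 of 13137 in limb and rank 23 of 11073 in forebrain. Prrx1 and Prrx2 had ranks 7130 and 6721 in limb, in the lower-ranked part of that list. Over the whole territory H3K27me3 covered 51.1 kb at Barx1 and 29.6 kb at Alx4 in limb, against a median of 3.88 kb, and less than the Barx1 value was covered at 98.2% of genes. In forebrain it covered 15.3 kb at Alx4, 15.2 kb at Barx1, 13.4 kb at Alx1, 8.14 kb at Prrx1 and 3.97 kb at Prrx2. The forebrain median was 0.879 kb.

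**Figure D5:**
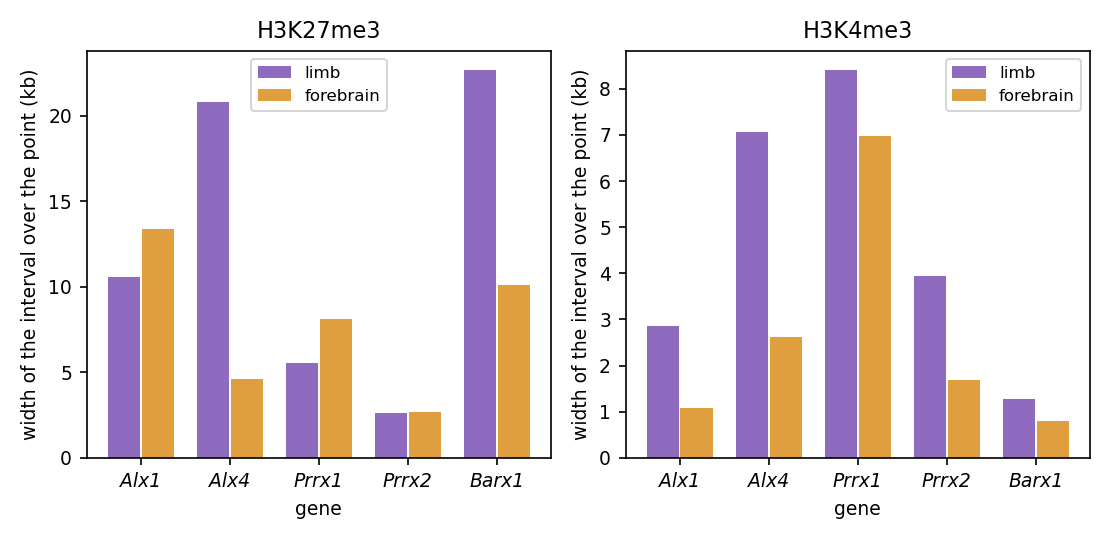
Width of the H3K27me3 region (left) and H3K4me3 region (right) that covers each gene point, in kb, in limb and in forebrain; the vertical scales differ. Every gene has all 4 regions; Barx1 has the widest H3K27me3 and Prrx1 the widest H3K4me3 region in limb.

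H3K4me3 over the points was wider in limb than in forebrain at each of the 5 genes. It spanned 8403 bp in limb and 6979 bp in forebrain at Prrx1, 7052 and 2627 bp at Alx4, 3937 and 1687 bp at Prrx2, 2853 and 1074 bp at Alx1 and 1272 and 797 bp at Barx1. The median region of the list went the other way, at 1753 bp in limb and 2070 bp in forebrain. Prrx1 had rank 340 of 19688 in limb and 8891 of 16544 in forebrain. H3K27ac, a mark of active elements mapped in limb only, covered the points of Alx4, Prrx1 and Prrx2, and 49.8% of all points. The Prrx1 region of 7015 bp had rank 48 of 17188, while the regions at Alx4 and Prrx2 had ranks 5394 and 5762. The closest H3K27ac region lay 36965 bp from the Barx1 point and 207115 bp from the Alx1 point.

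Around the starts, the 5 genes had 73 regions of H3K4me1, a mark of enhancers, in limb: 1 at Alx1, 22 at Alx4, 12 at Prrx1, 21 at Prrx2 and 17 at Barx1. Of all genes, 97.5% had at least 1. In forebrain there were 38, with 1, 8, 3, 17 and 9 in the same order, against 94.6% of genes. The ratio of limb to forebrain regions was 1.92 near the 5 genes and 1.67 over the lists. H3K27ac gave 0, 6, 4, 15 and 3 regions, against 88.8% of genes with at least 1. H3K27ac covered 38.2 kb at Prrx2, more than at 99.7% of genes, and 3.82 kb at Barx1, close to the median of 3.63 kb. H3K4me3 gave 1, 4, 3, 17 and 7 regions in limb and 1, 2, 2, 11 and 4 in forebrain, against 95.3% and 94.2% of genes with at least 1. H3K27me3 gave 1, 4, 1, 5 and 7 regions in limb and 1, 4, 1, 2 and 4 in forebrain, against 72.3% and 60% of genes. The limb inputs gave 1 region at Prrx2 and 0 at the other genes. Many of the limb mark regions lay nearer to another gene point than to that of the member. A member was nearest for 39 of the 73 limb H3K4me1 regions. The Prrx2 point was nearest for 2 of the 21 H3K4me1, 5 of the 15 H3K27ac and 5 of the 17 limb H3K4me3 regions in its territory.

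Of the 49 SMARCA4 face peaks, 43 lay over limb H3K4me1, or 87.8% (75.2% to 95.4%), against 70.9% of the list. Limb H3K4me1 itself covered 81.4 kb of the territory at Prrx2, 64.1 kb at Alx4 and 40.3 kb at Barx1, against a median of 14.6 kb over all genes. It covered 23.5 kb at Prrx1 and 3.43 kb at Alx1. Whether the higher share follows from this cover was not tested. Over limb H3K27me3 there were 20, or 40.8% (27% to 55.8%), against 21.1%, and over limb H3K27ac 21, or 42.9% (28.8% to 57.8%), against 34.9%. Both H3K4me1 and H3K27me3 without H3K27ac lay under 13 of the 49, or 26.5% (14.9% to 41.1%), against 15.1% of the list. At Barx1 this was so for 7 of 12 peaks, and 3 lay over H3K27ac. At Prrx2, 12 of 18 lay over H3K27ac and 5 over H3K27me3. At Alx4, 11 of 13 lay over H3K4me1, 4 over H3K27ac and 4 over H3K27me3, and at Alx1 all 3 lay over H3K27me3 and 0 over H3K27ac. These marks come from another tissue and strain than the face peaks. Intervals cover counting error only, and peaks of 1 territory are not independent. Several peaks can lie in 1 H3K27me3 region, as all 3 did at Alx1.

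At the points themselves, SMARCA4 face covered 1 of 5, that of Prrx1, with a peak of 3701 bp, against 44.8% of all points. It came within 1 kb of all 5, and of 71.4% of all points. The gap was 193 bp at Alx1, 545 bp at Alx4, 298 bp at Prrx2 and 220 bp at Barx1. The SMARCA4 midbrain control also came within 1 kb of all 5, and of 63.7% of all points. SMARCC2 face covered the Prrx2 point, against 18.3% of all points, and lay 538 bp from that of Prrx1, 1038 bp from Alx1, 1153 bp from Alx4 and 9563 bp from Barx1. SMARCA4 limb covered the points of Prrx1 and Prrx2, against 24.8% of all points. The closest SMARCA4 limb peak lay 67647 bp from the Barx1 point, 307190 bp from Alx4 and 3764211 bp from Alx1.

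For context, 30 other craniofacial and mesenchyme regulators were counted in the same way, and 29 could be placed. Their median was 7 SMARCA4 face peaks (2 to 18), against 12 for the 5 genes and 5 for all genes. The highest were Dlx4 with 18, Dlx3 with 15 and Sox10 with 12, and the lowest Osr1 and Tfap2b with 2 each and Hand2 with 3. The median was 2 SMARCC2 peaks in both lists. EP300 face had a peak at 11 of 29 and SMARCA4 limb at 13 of 29, against 3 of 5 members in each. Over all genes the shares were 52.4% and 63.1%, and the members' share was near these.

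The genes most like each member were found by the sum of absolute differences in peak numbers over the 14 FLAG lists. Cxcl5 had the same 14 numbers as Alx1 (a sum of 0), with 5 peaks in all, and at such low numbers many genes come close: 11 tied at a sum of 1, 9130008F23Rik and AK015529 first in the alphabet. Enox1 was closest to Prrx1 (1), before 6 genes tied at 2, of which 4632434I11Rik and AK087755 come first in the alphabet. AK049522 and Dlk1, an imprinted gene, were closest to Alx4 (6 each), then AK041628, the first of 3 tied at 9. For Barx1, 4 genes tied at 5, among them Rell2, Slc25a25 and mFLJ00369. Prrx2, with 63 FLAG peaks in all, was closest to Lsp1 (8), AK082720 (12) and Acvrl1 (13). Between members the sum ran from 8 for Alx1 and Prrx1 to 58 for Alx1 and Prrx2. It was 50 for the paralogs Prrx1 and Prrx2 and 17 for Alx4 and Barx1. The sum cannot be smaller than the difference in FLAG totals, so it largely follows them. These totals were 13 at Prrx1 and 63 at Prrx2, but 30 at Alx4 and 29 at Barx1.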

How the data were processed

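The submitters' processing notes name BWA as aligner and mm9 as genome build; no version or peak caller is given in the sources used here. A list comes from a single library. Per the file headers, 16 deposited lists are tables of peaks with the nearest gene and its distance, the count of tags, a score of -10 log10 of p (50 or more in every line), the fold enrichment as a ratio and, in percent, the false discovery rate. The authors' other 14 lists hold positions and a rank score. Library depth is unknown.

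Gene points needed at least 2 peaks that agreed, and placed 16001 of 18835 symbols; of several transcripts, that with most peaks was taken (2369 symbols had more than 1 point). Peaks were counted by midpoint within 100 kb, and overlaps needed at least 1 bp. Peaks near or away from gene points (limit 1 kb) were also told apart by midpoint. For the state of a member's point, gaps ran to the nearest edge of the peak, so a peak can count as away by midpoint and still reach within 1 kb. Tables were ordered by the authors' score, then fold. Shares have exact 95% Clopper-Pearson intervals; a count of 0 was read as up to 3 counts. Control lists were counted in the same way. Point finding and overlaps were tested on simulated data. Named regions were the peak closest to each point, the SMARCA4 face peak over 1 kb from every gene point that overlapped most FLAG lists (ties by rank), and the SMARCC2 face peak of highest fold there. Other named genes were the 3 most like each member (members and genes within 200 kb left out), those with 2 or more peaks in the authors' tables, and the 3 highest and lowest of the comparison list; Cd82 and peaks named by rank were chosen after their values were seen. The members and lists were chosen with earlier results of these data known. Alternatives were other territory widths, peak subsets, list lengths and overlap rules. Python 3.11.15, numpy 2.4.6, pandas 2.3.3 and scipy 1.17.1 were used.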

Additional observations from a re-analysis of the deposited data

How the results depend on the processing

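The SMARCA4 face sum of 49 peaks moved to 30 with territories of 50 kb, 80 with 200 kb, 9 at equal list length, 26 without peaks over control or input lists, and 28 with peaks given to the nearest point. SMARCC2 face (23) moved to 11 at equal length and 14 without control peaks. EP300 face (4) moved to 0 without control peaks, 1 without peaks within 1 kb of gene points and 1 at a false discovery rate of 5% or less. The 1 left without peaks within 1 kb was the Prrx1 peak, whose midpoint lay 1.73 kb from the point. SMARCA4 limb (6) moved to 13 with 200 kb, 3 in the better-ranked 50% of its list, 0 without control peaks and 3 without peaks near gene points. The share of SMARCC2 face peaks over SMARCA4 face (87.0%) moved to 64.3% without control peaks and 63.6% at equal length. The reverse share (40.8%) moved to 77.8% at equal length, and the share of SMARCA4 face over EP300 face (6.12%) to 0% without control peaks and 11.1% at equal length. The share of EP300 face over SMARCA4 face, of 4 peaks, went from 75% to 25% at equal length. With intervals within 1 kb of a point in place of over it, SMARCA4 face reached 5 points (1 covered) and SMARCC2 face 2 (1 covered). The cause of these moves was not tested beyond what each choice removes. Of 170 single-gene values recomputed, 115 stayed within 1.5 times and 55 moved by more. The 115 include values of 0 that stayed 0. They also include EP300 face at equal length, which could not move because that length is its own. The EP300 share over SMARCA4 without control peaks has no value, as 0 peaks were left, and the false discovery rate limit could not be applied to the SMARCA4 lists of face and limb, which hold ranks. No paired analysis was possible because there was 1 library per condition and no result comes from a test.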
